A study of Arabidopsis thaliana with 44 samples.

Results

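The genes described here were 5 MADS-box transcription factor genes of the Arabidopsis fruit and ovule: SHATTERPROOF1 (SHP1, AT3G58780), SHATTERPROOF2 (SHP2, AT2G42830), SEEDSTICK (STK, AT4G09960), FRUITFULL (FUL, AT5G60910) and TRANSPARENT TESTA16 (TT16, AT5G23260). They were named as a group, and each was matched to the gene name on the Agilent oligonucleotide microarray with the transcript suffix removed. All 5 were found, with 1 probe each, among 21500 gene probes.

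MADS-box factors bind DNA as dimers and larger complexes, and the floral members set the identity of organs. SHP1 and SHP2 are close and largely redundant copies that specify the valve margin along which the fruit opens, and together with STK they give ovules their identity. STK is also needed for the seed stalk, FUL keeps valve margin identity out of the valves and lets the fruit elongate, and TT16 acts in the innermost layer of the seed coat, where it is needed for proanthocyanidin (tannin) to accumulate.

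The study compared microarray platforms and sequenced signatures on the same RNA samples of Arabidopsis tissues. The Agilent part held 12 two-color microarrays in 6 types, each with replicates A and B. By their labels the 4 self-self types carried 1 RNA in both dyes. These were actively growing callus, inflorescence with immature buds of mixed stage, leaf at 21 days and root at 21 days. The last 2 were from untreated plants. The 2 non-self types carried root (red, Cy5) against leaf (green, Cy3), and silique collected 24 to 48 hr after fertilization (red) against inflorescence (green). The labels give no mutant, transgene or treatment for these samples and name no ecotype. Replicates were technical repeats of 1 RNA sample per tissue, so every p-value below measures the spread between microarrays and not between plants. Whole tissue was used, and a higher signal from more cells of a type cannot be told apart from more RNA per cell. The study's Affymetrix microarrays and signature libraries were not used here, so every value comes from 1 probe per gene.

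On the self-self microarrays at least 97.4% of all gene probes were well above background in either channel. The silique channel was dimmer, with 76.0% (A) and 70.5% (B) of probes well above background, against 91.6% and 90.2% in the inflorescence channel beside it. All 5 probes were well above background in both channels of the 4 non-self microarrays, and none was saturated or marked as an outlier on any of the 12. Replicates A and B correlated across all probes at r = 0.926 to 0.978 on the self-self microarrays.

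One microarray stood apart. On the one labelled root A, 5 chlorophyll and carbon fixation genes listed as leaf markers summed to 3218 normalized expression units, against 146 on root B and 6121 and 6212 on the leaf microarrays, while 5 root markers summed to 1159 and 1100 on root A and root B. The leaf markers on root A were at 4811 units in green and 1502 in red, and the red over green ratio of that microarray correlated with the root over leaf ratio at r = 0.62 across probes. Comparisons with self-self root are therefore also given without root A. A normalized expression unit is the processed signal, averaged over both channels of a self-self microarray, per 1e+06 of the summed signal of all gene probes. For a tissue on a non-self microarray it was taken from that tissue's channel alone.

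All 5 genes were brightest in the silique. The plot of levels by tissue shows every value. In each case both silique values lay above all 14 values of the other tissues, and the lower silique value exceeded the highest of those 14 by 4.92-fold for SHP1, 4.32-fold for STK, 2.81-fold for SHP2, 2.19-fold for FUL and 1.53-fold for TT16. Below the silique the order of tissues differed between genes, and is given gene by gene. Levels of different probes are not comparable with each other. Both silique values were single channels, extracted from the scans on another day and with another software version (7.1.1) than the other types (6.1.1). In these levels silique cannot be told apart from day and version, except against inflorescence on the same microarrays. The TT16 level in inflorescence was 8.61 and 3.57 units on self-self and 2.19 and 2.34 on silique microarrays.

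**Figure D1:**
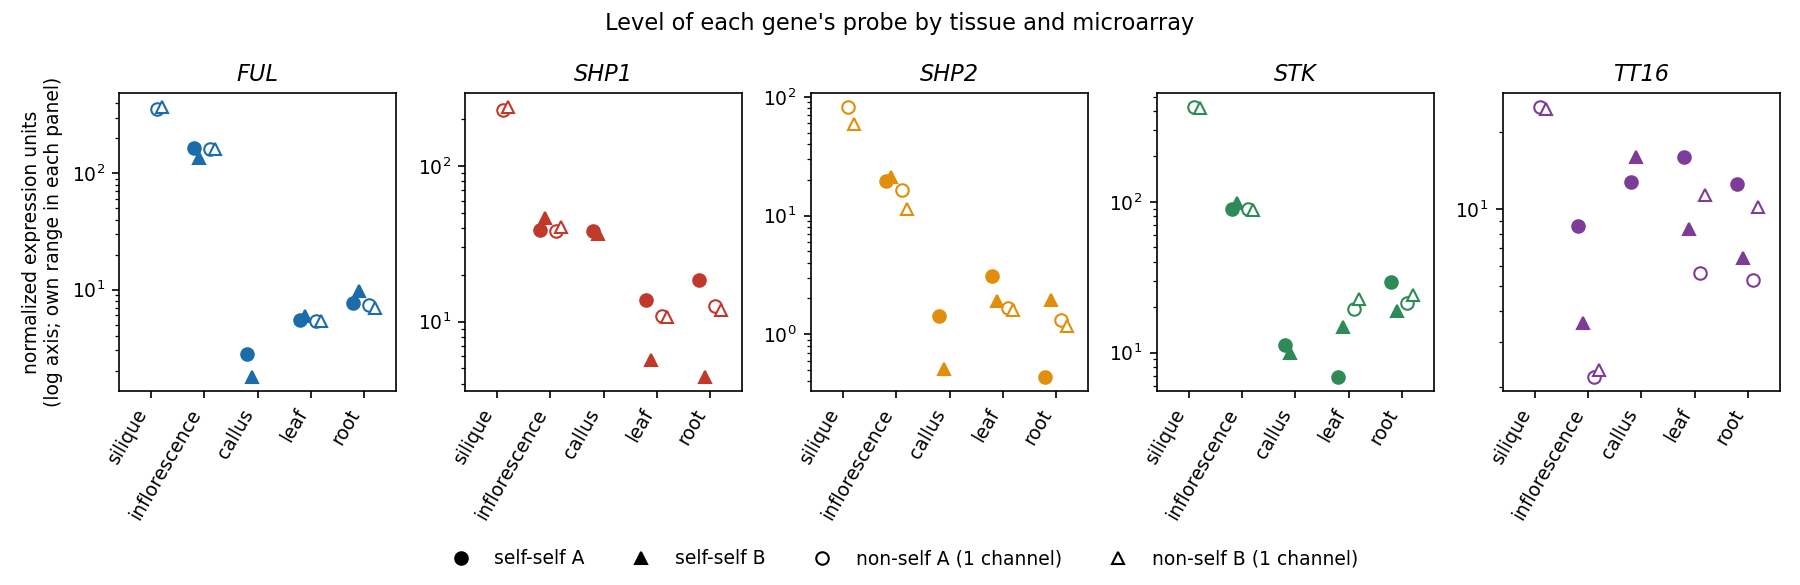
Level of each gene's probe in normalized expression units (log axis, own range in each panel) in 5 tissues. Filled symbols are self-self microarrays and open symbols single channels of non-self microarrays, circles replicate A and triangles replicate B. The silique symbols are the highest in all 5 panels, and the inflorescence is next highest for FUL, SHP2 and STK, level with callus for SHP1 and lowest by median for TT16.

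The direct comparison of silique with inflorescence asks which genes differ between young fruit and the buds that precede it. On these 2 microarrays all 5 genes were higher in the silique at an adjusted p below 0.05 (limma), where 32.9% of all 21498 probes tested were. The median log2 ratio of the 5 was 2.40, against 0.00 over all probes tested. The share of all probes passing the test was large, so the size of the ratios says more than the call. The SE and p-value of a direct comparison came from a fit that pooled the spread between replicates over all microarray types. That pool includes the spread between root A and root B, and direct comparisons are not given without root A. The p-values of direct comparisons thus rest only in part on the pair compared.

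For SHP1 the log2 ratio of silique over inflorescence was 2.63 on microarray A and 2.62 on B. The mean of 2.63 ± 0.04 (SE of the fit, n = 2) was a 6.17-fold higher level in the silique (adjusted p = 2.08e-09), and 98.4% of all probes had a lower ratio. The processed signal behind it was 21592 and 20452 in the silique channel and 3480 and 3333 in the inflorescence channel. Its copy SHP2 gave 2.36 and 2.43, a mean of 2.40 ± 0.04 (n = 2) or 5.27-fold (adjusted p = 3.42e-09). The SHP2 signal itself differed between replicates, at 7744 and 5075 in silique and 1504 and 939 in inflorescence, but both channels moved together and the ratio hardly changed. SHP1 and SHP2 are similar in sequence, and cross-hybridization between their probes was not tested.

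STK, which promotes ovule and seed stalk development, had log2 ratios of 2.299 and 2.303, the closest pair of the 5 genes. The mean of 2.30 ± 0.04 (n = 2) was 4.93-fold (adjusted p = 2.69e-09). The 3 ovule identity genes SHP1, SHP2 and STK thus all lay between 4.93- and 6.17-fold.

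TT16, the seed coat gene, had the largest ratio of the 5, at 3.56 and 3.44 on the log2 scale. The mean of 3.50 ± 0.04 (n = 2) was 11.3-fold (adjusted p = 1.91e-09), and its ratio ranked 180 from the top of all probes tested. Its inflorescence signal was low, 200.2 and 193 against 2364 and 2091 in silique, and the size of the ratio depended on how background was taken off. With normexp background correction and loess normalization the TT16 log2 ratio was 2.16, that of SHP2 was 2.07, and those of SHP1, STK and FUL were 2.49, 2.25 and 1.20.

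FUL had the smallest ratio of the 5, with 1.19 and 1.23 on the log2 scale and a mean of 1.21 ± 0.10 (n = 2), or 2.31-fold (adjusted p = 8.62e-06). Its signal was already high in inflorescence, at 14869 and 13449, against 33851 and 31652 in silique. FUL also had the largest dye difference of the 5. On the 8 self-self microarrays, labelled as the same RNA in both channels, its log2 ratio of red over green averaged 0.29, from 0.08 to 0.56. Silique was always in the red channel. Root A, whose ratio followed root over leaf (r = 0.62), is among the 8. A mean over all 8 may therefore not be of dye alone, which was not tested. The FUL ratio was 0.085 on root A and 0.083 on root B. Slide numbers in the file headers set leaf B and both root microarrays apart from the rest, and these were taken as another slide series. On the 5 self-self microarrays of the slide series that also held the non-self microarrays the FUL dye ratio averaged 0.42 (0.28 to 0.56), against 0.09 (0.08 to 0.11) on the 3 of the other series. With the mean over all 8 taken off, the silique ratio of FUL was 0.92 (adjusted p = 4.75e-05), and with the mean of its own slide series taken off it was 0.80 (adjusted p = 1.09e-04). For the other 4 genes the mean dye ratio over the 8 was between -0.03 and 0.14, and taking it off left silique ratios of 2.31 to 3.47.

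**Figure D2:**
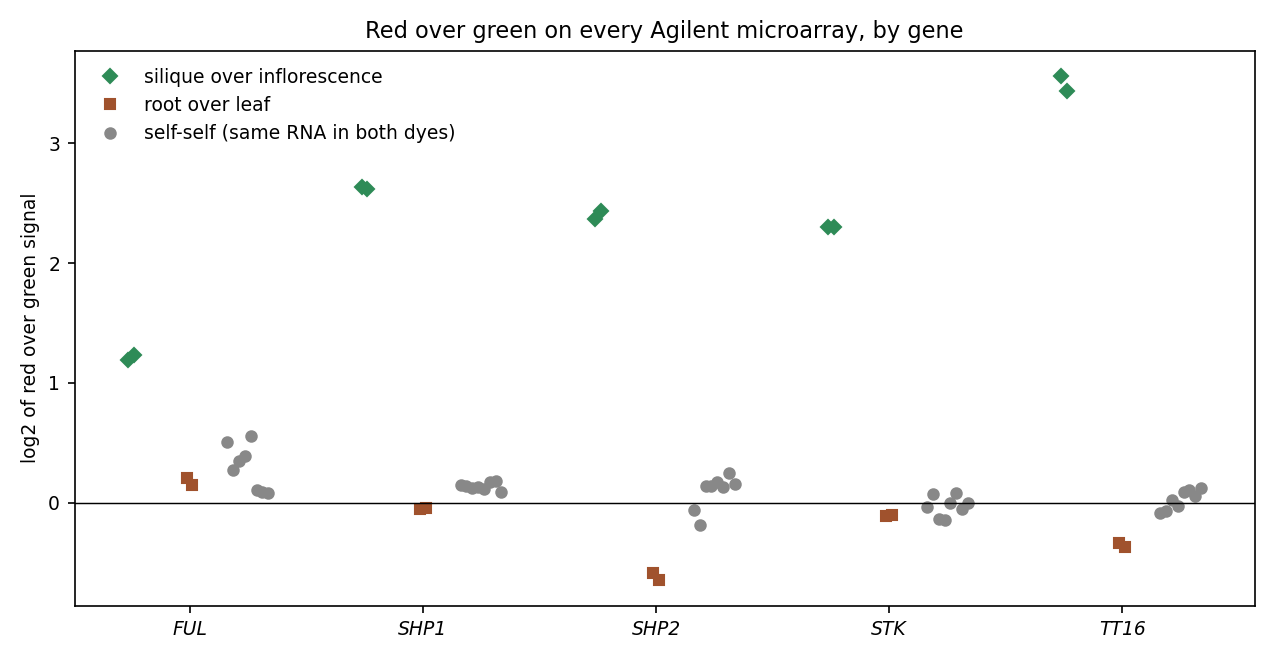
Log2 of red over green signal for each gene on all 12 microarrays, 1 symbol per microarray. The silique over inflorescence ratios (diamonds, 1.19 to 3.56) lie above every self-self ratio (circles), while the root over leaf ratios (squares) lie close to 0 and among the self-self ratios for STK and FUL.

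In the direct root over leaf comparison none of the 5 was higher in root and 3 were higher in leaf, where 38.7% and 30.8% of 21490 probes tested were. The median log2 ratio of the 5 was -0.11, against 0.03 over all probes tested. SHP2 had ratios of -0.59 and -0.65, a mean of -0.62 ± 0.04 (n = 2), which is a level 1.54-fold higher in leaf (adjusted p = 3.07e-06). This ratio stood on weak signals of 134.7 and 120.1 in leaf and 89.5 and 76.5 in root, and with normexp and loess it was -0.30 (adjusted p = 9.59e-05).

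TT16 was higher in leaf by 1.28-fold, with log2 ratios of -0.34 and -0.37 and a mean of -0.36 ± 0.04 (n = 2, adjusted p = 1.03e-04). The TT16 signal on replicate B was close to double that on A in both channels, 660.4 against 355.8 in root and 853 against 451 in leaf, and the ratio stayed the same. STK passed narrowly at -0.11 on both microarrays (mean -0.11 ± 0.04, adjusted p = 0.0309). Without microarray A its adjusted p was 0.139 and without B it was 0.13, and it no longer passed with the dye ratio taken off (-0.08, adjusted p = 0.0836).

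SHP1 had ratios of -0.06 and -0.04 and did not pass (mean -0.05 ± 0.04, adjusted p = 0.281). With the self-self dye ratio of SHP1 taken off, which was 0.09 to 0.18 on all 8 microarrays (0.18 on root A), the mean was -0.19 (adjusted p = 0.00121). FUL had ratios of 0.20 and 0.14 and did not pass (mean 0.17 ± 0.10, adjusted p = 0.14). Its direction turned with the dye ratio taken off, to -0.12 (adjusted p = 0.290) over all 8 self-self microarrays and -0.24 (adjusted p = 0.0498) over those of the same slide series. These root and leaf differences were small beside the silique differences for each of the 5 genes.

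The self-self microarrays place inflorescence beside leaf, root and callus, tissues with no fruit or ovules. FUL, SHP1, SHP2 and STK were higher in inflorescence than in leaf, 4 of 5 where 21.1% of all probes were, and the same 4 were higher than in root, where 22.3% of all probes were, with or without root A. FUL, SHP2 and STK were higher in inflorescence than in callus, 3 of 5 where 21.5% of all probes were. TT16 passed in none of the 3 comparisons and had its lowest mean in inflorescence. The SE and p-value of every self-self comparison came from a fit that pooled the spread between replicates over all self-self tissues. Comparisons that do not involve root thus also rest on the spread between root A and root B. Both self-self root microarrays and leaf B were of another slide series than callus, inflorescence and leaf A. Only leaf had self-self microarrays of both series, so a fixed block for series rests on leaf A against leaf B alone. With it the differences of inflorescence and callus from leaf are those without leaf B, which makes it no separate check there. With slide series as a fixed block, added after seeing the data, FUL and STK still passed in inflorescence over leaf and over root, and SHP1 (adjusted p = 0.180 and 0.578) and SHP2 (adjusted p = 0.102 and 0.128) passed in neither. Signals of callus and inflorescence were extracted from the scans on another day than those of leaf and root, so that tissue and extraction day cannot be told apart in inflorescence over leaf, inflorescence over root, callus over leaf and callus over root.

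FUL had the steepest pattern. It stood at 164.1 (A) and 135.2 (B) units in inflorescence, 7.72 and 9.79 in root, 5.5 and 5.94 in leaf and 2.82 and 1.76 in callus, and no 2 tissues overlapped. The inflorescence level was 26.1-fold that in leaf (log2 difference 4.70 ± 0.27, adjusted p = 1.60e-04), 17.1-fold that in root (4.10 ± 0.27, adjusted p = 1.35e-04) and 66.9-fold that in callus (6.06 ± 0.27, adjusted p = 1.71e-05), each with n = 2 per tissue. Callus was also lower than leaf, by 2.57-fold (adjusted p = 0.00679), and lower than root, by 3.91-fold (adjusted p = 0.00200). Without root A the log2 difference of callus over root was -2.14 (adjusted p = 0.00561), and with slide series as a fixed block it was -1.85 and did not pass (adjusted p = 0.0604). With normexp and quantile normalization callus over leaf was -0.62 (adjusted p = 0.0495) and callus over root -1.04 (adjusted p = 0.00766). Root and leaf did not differ beyond the spread (log2 difference 0.61 ± 0.27, adjusted p = 0.14, and 0.78 with adjusted p = 0.131 without root A). The inflorescence channel of the silique microarrays gave 162.4 and 163.2 units, within the self-self range. Without root A the log2 difference of inflorescence over root was 3.93 (adjusted p = 7.04e-04).

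STK stood at 90.1 and 97.6 units in inflorescence, 29.3 and 18.9 in root, 6.83 and 14.7 in leaf and 11.3 and 9.92 in callus. Inflorescence was clear of the rest, root was above leaf and callus, and leaf and callus overlapped. Inflorescence was 9.36-fold above leaf (log2 difference 3.23 ± 0.38, adjusted p = 0.00170), 3.99-fold above root (1.99 ± 0.38, adjusted p = 0.00639, and 2.31 with adjusted p = 0.00966 without root A) and 8.86-fold above callus (3.15 ± 0.38, adjusted p = 9.37e-04). Callus over root passed at -1.15 ± 0.38 (adjusted p = 0.0443) but not without root A (-0.83, adjusted p = 0.171), callus A (-1.25, adjusted p = 0.108) or callus B (-1.06, adjusted p = 0.157), nor with quantile normalization (-0.84, adjusted p = 0.12) or the fixed block (-0.05, adjusted p = 0.947). Root over leaf was 1.23 ± 0.38 and did not pass (adjusted p = 0.0516), without root A it was 0.91 (adjusted p = 0.174), and without leaf B it was 1.78 (adjusted p = 0.0116). The leaf channel of the root/leaf microarrays gave STK 19.3 and 22.5 units, above both self-self leaf values, beside 21.3 and 24.2 in the root channel. The self-self root and leaf difference of STK was thus not seen when both tissues were on the same microarray.

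SHP2 stood at 19.5 and 21.2 units in inflorescence, 3.09 and 1.90 in leaf, 0.43 and 1.93 in root and 1.43 and 0.51 in callus. Leaf, root and callus overlapped, and the probe was not well above background in the green channel of root A and the red channel of callus B. Inflorescence was above leaf by 3.07 ± 0.78 on the log2 scale (8.39-fold, adjusted p = 0.0232), above root by 4.48 ± 0.78 (22.3-fold, adjusted p = 0.00439) and above callus by 4.57 ± 0.78 (23.8-fold, adjusted p = 0.00414). The root value rested on root A, without which it was 3.39 (adjusted p = 0.00980), and with slide series as a fixed block it was 3.77 and did not pass (adjusted p = 0.128). The call over leaf was lost when any 1 of its 4 microarrays was left out, with log2 differences of 2.72 to 3.42 and adjusted p-values of 0.0525 to 0.109, and with the fixed block (2.72, adjusted p = 0.102).

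SHP1 differed from its copy in callus. It stood at 38.9 and 46.5 units in inflorescence and 38.3 and 36.5 in callus, and their log2 difference of 0.18 ± 0.69 did not pass (adjusted p = 0.872). That SE was pooled over all tissues of the fit. The SD of log2 units was 0.18 in inflorescence and 0.05 in callus, against 0.90 in leaf and 1.47 in root. Callus passed over leaf (2.08 ± 0.69, 4.24-fold, adjusted p = 0.0428) and over root (2.06 ± 0.69, 4.17-fold, adjusted p = 0.0455). On the same 2 callus microarrays SHP2 was at or near its lowest level, with inflorescence above callus as given. Leaf and root were poorly measured for SHP1, at 13.7 and 5.69 units in leaf and 18.5 and 4.37 in root, which overlap. On the root/leaf microarrays the values were 10.9 and 10.7 in leaf and 12.5 and 11.9 in root.

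Inflorescence over leaf passed for SHP1 at 2.27 ± 0.69 (4.82-fold, adjusted p = 0.0416) and over root at 2.24 ± 0.69 (4.74-fold, adjusted p = 0.0357). These 4 calls of SHP1 were fragile. Leaving out inflorescence A or B ended both inflorescence calls (2.12 to 2.40, adjusted p = 0.104 to 0.168), and leaving out callus A or B ended both callus calls (2.02 to 2.12, adjusted p = 0.121 to 0.14). Leaving out leaf B, the leaf microarray of the other slide series, brought inflorescence over leaf to 1.64 (adjusted p = 0.178) and callus over leaf to 1.45 (adjusted p = 0.192). Leaving out root A raised inflorescence over root to 3.28 (adjusted p = 0.00464) and callus over root to 3.10 (adjusted p = 0.00651), while without root B they were 1.21 (adjusted p = 0.106) and 1.02 (adjusted p = 0.145). With the fixed block inflorescence and callus were above leaf by the same 1.64 (adjusted p = 0.180) and 1.45 (adjusted p = 0.194). They were above root by 0.98 (adjusted p = 0.578) and 0.79 (adjusted p = 0.651). The direction of the SHP1 differences between inflorescence or callus and the vegetative tissues held in these cases, and their size did not.

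TT16 stood at 12.7 and 16.0 units in callus, 15.9 and 8.34 in leaf, 12.5 and 6.42 in root and 8.61 and 3.57 in inflorescence. The replicates of leaf, root and inflorescence each differed by close to 2-fold or more, callus, leaf and root overlapped, and no difference between tissues passed for TT16. Inflorescence over callus was -1.36 ± 0.54 (adjusted p = 0.0993), inflorescence over leaf -1.06 ± 0.54 (adjusted p = 0.172) and inflorescence over root -0.70 ± 0.54 (adjusted p = 0.329, and -0.21 with adjusted p = 0.798 without root A). In the inflorescence channel of the silique microarrays TT16 was lower still, at 2.19 and 2.34 units, beside 25.1 and 24.5 in silique.

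Of the remaining self-self comparisons, root over leaf passed for 0 of 5 genes with or without root A, where 32% of all probes passed in either direction. In callus over leaf SHP1 was higher in callus and FUL higher in leaf, where 24.5% and 27.9% of all probes were. In callus over root SHP1 was higher in callus, where 19.3% of all probes were, and FUL and STK were higher in root, where 32% were. Without root A callus over root passed for SHP1 and FUL. With 5 genes these counts are near the shares of all probes.

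**Figure D3:**
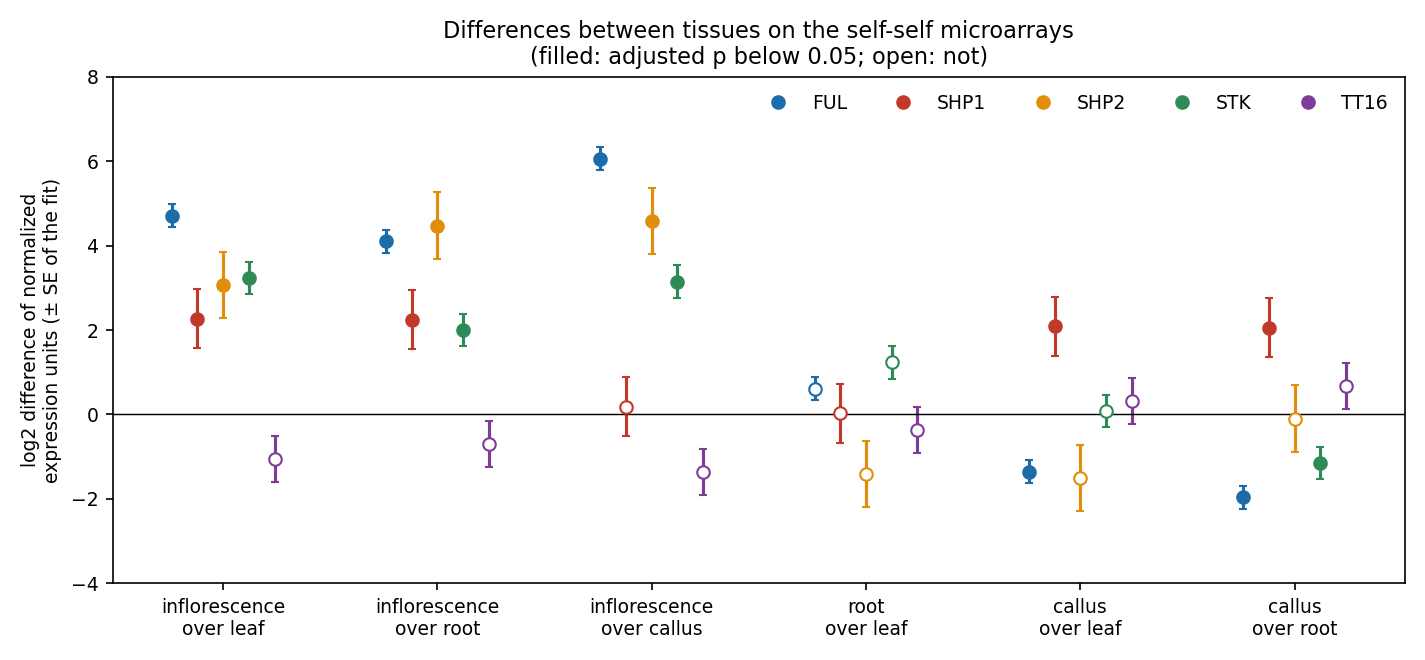
Log2 difference between tissues on the self-self microarrays with the SE of the fit (2 microarrays per tissue), filled where the adjusted p was below 0.05. In the 3 inflorescence comparisons FUL, SHP2 and STK lie between 1.99 and 6.06, SHP1 joins them over leaf and root but is near 0 over callus, and TT16 is below 0 in all 3 and does not pass.

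Across the 8 self-self microarrays the pattern of FUL correlated with those of STK (Pearson r = 0.93 on log2 units) and SHP2 (r = 0.89), and STK with SHP2 (r = 0.70). SHP1 was apart, at r = 0.28 to 0.38 with these 3, and TT16 ran against FUL, STK and SHP2 at r = -0.67 to -0.73. Over the 7 microarrays without root A these were 0.95 for FUL with STK, 0.97 for FUL with SHP2, 0.87 for STK with SHP2, 0.29 to 0.38 for SHP1 and -0.67 to -0.78 for TT16. These are descriptions over microarrays of 4 tissues that share samples and extraction days.

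Among 14304 other probes with a clear signal and a range of at least 1 (log2) between tissue means, the nearest to FUL were NDL3 (r = 0.996), AT2G20470 (r = 0.996) and CYP705A24 (r = 0.995). The nearest to STK were ARAC5 (r = 0.988), GGPS2 (r = 0.987) and HEXO2 (r = 0.984), and to SHP2 CCS (r = 0.987), VGDH1 (r = 0.983) and AT1G74130 (r = 0.982). SHP1 was followed most closely by AT5G18230 (r = 0.971), ATERDJ3A (r = 0.970) and DCL2 (r = 0.969), and TT16 by AT3G55910 (r = 0.954), AOX1B (r = 0.922) and AT1G53010 (r = 0.919). Without root A these 15 correlations were 0.933 to 0.998. Many other probes were nearly as close, except for TT16. Over the 8 microarrays r was above 0.9 for 627 probes with FUL, 357 with STK, 247 with SHP2, 89 with SHP1 and 4 with TT16. The 15 are thus a small part of the probes with such patterns. In silique over inflorescence 1 of the 15 was higher (HEXO2, 0.53 on the log2 scale), 11 were lower and 3 did not pass. Of all probes tested 32.9% were higher and 32.6% lower. The median of the 15 was -0.57, against 2.40 for the 5 MADS genes.

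Other genes of fruit and ovule development did not share one direction in the silique. Of 44 genes in 4 lists 41 had a probe, of which 14 were higher in silique, 17 higher in inflorescence and 10 not called, where 32.9% and 32.6% of all probes were.

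The seed coat and tannin list was higher in silique in 9 of 10 genes, with a median log2 ratio of 4.96. For 1 of the 9, TT1, silique was not well above background on either microarray, which leaves 8 that were measured in silique. DFR (dihydroflavonol reductase), LDOX (leucoanthocyanidin dioxygenase) and BAN (anthocyanidin reductase), 3 enzymes on the way to proanthocyanidin, were at the software's ceiling of 100-fold on both microarrays. For DFR and BAN inflorescence was well above background on only 1 of the 2 microarrays. The transporter gene TT12 was at 5.84 and 6.06 (mean 5.95 ± 0.29, adjusted p = 4.66e-07). TTG1, a general partner of the regulators of this pathway, was the gene that was lower, at -0.34 ± 0.05 (adjusted p = 5.28e-04). TT16 moved in the direction of those 8 genes, with a smaller ratio than the list's median.

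In the carpel and fruit patterning list 5 of 20 genes were higher in silique and 10 were higher in inflorescence, with a median of -0.40. The 5 higher genes, named here after their values were seen, were the valve margin gene ALC (1.17 ± 0.04), the MADS partners SEP1 (1.15 ± 0.04), SEP2 (0.61 ± 0.04) and SEP4 (0.40 ± 0.05), and RPL (0.28 ± 0.05), which specifies the replum. HEC2, needed for the transmitting tract, was at -4.16 and -3.63, YAB3, a gene of the outer face of lateral organs, at -3.63 and -2.82, and CRC, which shapes the carpel and nectary, at -2.36 and -2.28. For these 3 genes silique was not well above background on either microarray, so that the levels were at least 2.79-fold, 2.75-fold and 1.56-fold higher in inflorescence (adjusted p = 2.92e-08, 7.44e-05 and 2.27e-08). Such a bound sets the inflorescence mean against the dimmest signal that was well above background in the silique channel. The adjusted p-value beside a bound, here and below, is that of the limma fit to the log2 ratio. It does not test the bound. ADPG1, a pectin-degrading enzyme of opening fruits, was at -1.85 ± 0.08 (adjusted p = 2.75e-07).

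None of the 6 ovule development genes was higher in silique and 4 were higher in inflorescence, with a median of -1.17. SPL, needed to start spore formation, was at least 4.64-fold higher in inflorescence (adjusted p = 1.06e-07) and ANT, which promotes organ growth and integument initiation, was 11.1-fold higher (log2 ratio -3.47 ± 0.07, adjusted p = 5.41e-09). SUP was at -1.51 ± 0.10 (adjusted p = 3.74e-06), and ATS, needed to keep the 2 integuments apart, was at least 1.20-fold higher in inflorescence (adjusted p = 0.00166). STK, SHP1 and SHP2, which also act in ovules, were thus opposite in direction to these 4 genes.

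Among 5 related MADS genes none was higher in silique. AP1 and CAL, which are related to FUL and promote the floral meristem, were higher in inflorescence. AP1 was at -3.18 and -3.67 (mean -3.43 ± 0.15, 10.7-fold, adjusted p = 2.24e-07), and CAL was at least 2.06-fold higher in inflorescence (adjusted p = 7.28e-09). On the self-self microarrays 3 of these 5 were higher in inflorescence than in leaf, and 3 than in callus. The counts were 11 and 13 of 20 for carpel and fruit patterning and 3 and 4 of 6 for ovule development. They were 0 and 1 of 10 for seed coat and tannin, where 4 were lower than in leaf. Of all probes 21.1% and 21.5% were higher. Of the ovule genes 1 was lower than in callus.

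**Figure D4:**
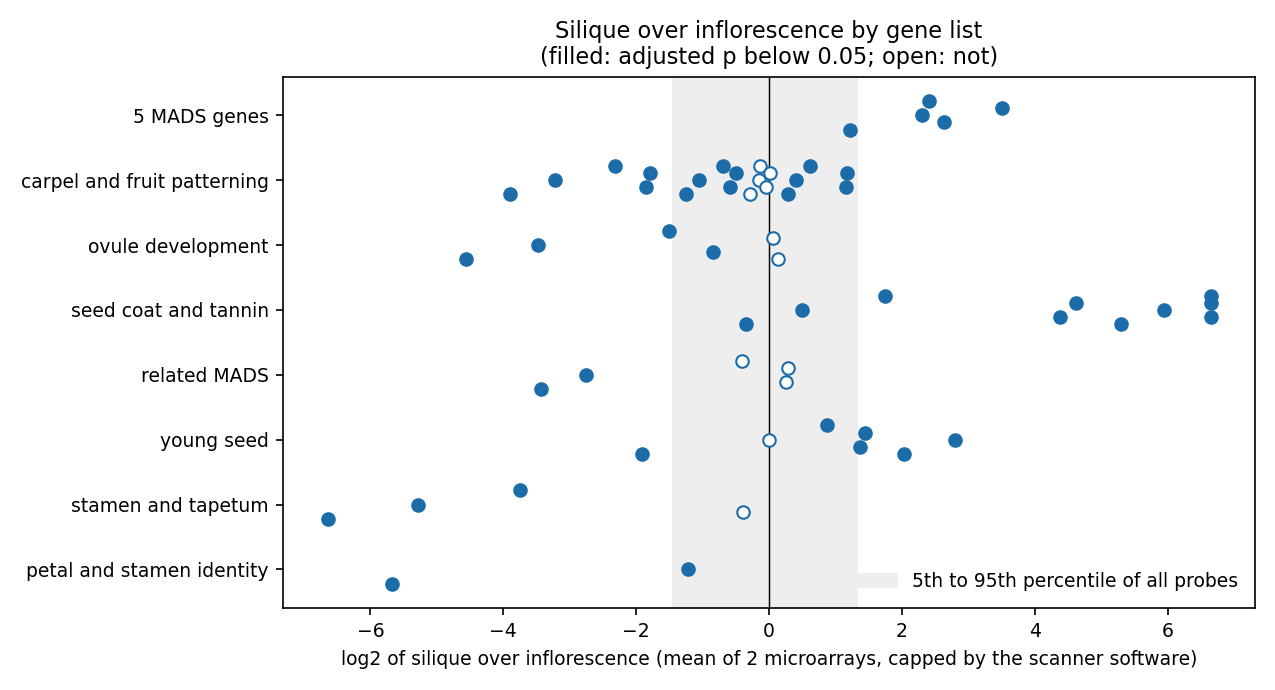
Log2 ratio of silique over inflorescence for each gene of 8 lists (mean of 2 microarrays), filled where the adjusted p was below 0.05, with the range from the 5th to the 95th percentile of all probes shaded. The 5 MADS genes lie from 1.21 to 3.50, most seed coat and tannin genes lie farther to the right and reach the ceiling of 6.64, and the ovule development, stamen and petal lists lie mostly to the left.

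Markers of organs moved between the same 2 samples. Of 7 young seed genes 5 were higher in silique, where 32.9% of all probes were. MINI3 was at 3.32 and 2.28 (mean 2.80 ± 0.21, adjusted p = 5.33e-06) and LEC1 at 1.64 and 2.42 (mean 2.03 ± 0.14, adjusted p = 4.43e-06). AGL62 was at 1.26 and 0.48. The replicates of these 3 genes lay farther from their means than the SE, which was pooled over all microarray types. The 1 lower gene was FUS3, by at least 1.56-fold (adjusted p = 7.67e-08). Of the 5, PHE1 (adjusted p = 0.0269) and FIS2 (adjusted p = 8.45e-05) were well above background in the inflorescence channel of 1 microarray and in neither silique channel, which leaves 3 that were measured in silique. The 7 probes summed to 24.7 and 21.7 units in silique, and 11.0 and 12.3 in the inflorescence channel beside it. On self-self microarrays, extracted on other days, they summed to 99.6 and 113 units in leaf and 122 and 127 in root. These probes thus also gave signal in tissues without seeds. Of 4 stamen and tapetum genes 3 were higher in inflorescence, with GRP17 at the ceiling of 100-fold, AMS at least 6.88-fold and A9 13.4-fold, and both petal and stamen identity genes were, PI by 51.2-fold and AP3 by 2.33-fold. Of 5 leaf markers 4 were higher in silique, led by LHCB1.3 at 2.73 ± 0.32 (adjusted p = 1.83e-04). RBCS1A, the leaf marker not called, was saturated in both channels of both microarrays. Of 5 root markers 3 were not called. COBL9 was at least 5.20-fold higher in inflorescence (adjusted p = 6.66e-09). TIP2;3 was higher in silique, at 0.77 ± 0.07 (adjusted p = 3.16e-05), with silique well above background on 1 microarray. Of all probes 32.6% were higher in inflorescence. These samples thus also differed in marker genes, and the part of organ makeup in the ratios of the 5 MADS genes was not tested.

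In root over leaf the 4 fruit and ovule lists had 5 genes higher in root, 17 higher in leaf and 19 not called, beside the 38.7% and 30.8% of all probes. The largest ratios among them were those of DFR (-3.78 ± 0.22, adjusted p = 1.02e-06), YAB3 (-3.06 ± 0.32, adjusted p = 8.37e-05), FIL (-2.78 ± 0.13, adjusted p = 3.54e-07) and ATS (2.28 ± 0.16, adjusted p = 3.03e-06). BEL1, which patterns the ovule integuments, was at -1.63 ± 0.17 (adjusted p = 4.08e-05) and SEP4 at -2.25 ± 0.05 (adjusted p = 5.64e-09). These 6 were named for the size of their ratios, so the 5 MADS genes, at -0.62 to 0.17, cannot be set against them. The median log2 ratio was -0.15 over the 41 list genes and -0.11 over the 5 MADS genes. YAB3 was at -3.05 (A) and -3.07 (B), closer together than its SE of 0.32, which was pooled over all microarray types.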

How the data were processed

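Total RNA of each tissue was labelled with Cy3 and Cy5 and hybridized to two-color Agilent microarrays with 22575 features, of which 21500 were gene probes. The authors deposited scanner files with intensity (processed, mean and background signals per channel) and the log10 ratio of red over green, processed by Agilent Feature Extraction (6.1.1 or 7.1.1 in the file headers, 8.1 in the submitters' notes), which caps the ratio at 100-fold. The value table the authors deposited held the same log10 ratios, to within 1.07e-07. The ratio's direction follows the dyes in the labels, which give both replicates of a non-self type the same orientation, although the labelling protocol speaks of dye reversals. No probe sequence or genome build is given in the sources used here, and names follow RefSeq locus tags (21191 of 21500 matched).

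From these files log10 ratios were turned into log2, and normalized expression units (processed signal averaged over both channels, per 1e+06 of the sum over gene probes) were computed for self-self microarrays. limma 3.58.1 (R 4.3.3; lmFit, eBayes with trend) was fitted to the log2 ratios of 12 microarrays with 1 mean per type, and to log2 units of the 8 self-self microarrays with 1 mean per tissue. Benjamini-Hochberg adjustment ran over all probes within a comparison, with a threshold of 0.05. Controls and outlier spots did not enter the fits, saturated spots did, and the code was tested on simulated data. Named genes were the 5 members, of each list up to 4 genes with the largest ratios among those passing in silique over inflorescence and up to 3 in root over leaf, and the 3 nearest patterns per member. The members and lists were chosen with earlier results of these data known. Alternatives were background correction, normalization, single channels, dye correction, filters, blocks and leaving out each microarray. Bounds on folds used normexp (offset 50), loess and Aquantile. Affymetrix values were not analysed here because no table pairs those probe sets with genes, and signature counts were not analysed here. The number of microarrays limits the precision.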

Additional observations from a re-analysis of the deposited data

How the results depend on the processing

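All 5 genes were higher in silique under every one of the 11 alternatives, and the calls of the fruit and ovule lists stayed between 31 and 34 when a microarray was left out. Leaving out 1 microarray at a time, the genes called were 5 in silique over inflorescence, 2 in root over leaf, 2 to 3 in inflorescence over leaf, 3 to 4 over root and 3 over callus, 0 to 1 in self-self root over leaf, 1 to 2 in callus over leaf and 1 to 2 in callus over root. With slide series as a random block 1 gene passed in callus over leaf and 1 in callus over root. With slide series as a fixed block, added after seeing the data, 2 genes passed in inflorescence over leaf, 2 over root, 1 in callus over leaf and 0 in callus over root. The cause was not tested. Microarrays with the same replicate letter did not deviate together (r of -0.20 to 0.17 on log2 units and -0.11 to 0.10 on log2 ratios), so the letter pairs nothing. With it as a replicate block 5 genes passed in silique over inflorescence, 3 in root over leaf, 4 in inflorescence over leaf and 2 in callus over root.

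Direction turned only where the main value had not passed. For FUL in direct root over leaf it was -0.12 with the dye ratio taken off and -0.24 with that of the same slide series, the latter added after seeing the data. For SHP1 in self-self root over leaf it was -0.068 with quantile normalization, -0.071 with the 75th percentile and -0.011 with normexp, and ran from -1.01 without root A to 1.06 without root B when 1 microarray was left out. For SHP2 in callus over root it was 0.56, 0.042 and 0.19 in the same 3 normalizations and 0.11 in green alone, and ran from -1.18 without root A to 0.98 without root B. For TT16 it was 0.11 in self-self root over leaf with the fixed block and ran from -0.84 without root A to 0.12 without root B, was -0.16 in callus over leaf with the fixed block and ran from -0.16 without leaf B to 0.77 without leaf A, and -0.26 in callus over root with the fixed block. For STK in callus over leaf it ran from -0.47 without leaf A to 0.63 without leaf B.

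Weak signal limits SHP2 outside flower and fruit and TT16 in inflorescence. The design rows for Affymetrix microarrays were not run.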

Other observations

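SHP1 was not alone among floral MADS genes in its callus level. PI, a petal and stamen identity gene, stood at 267 and 208 units in callus, against 518 and 429 in inflorescence, 9.42 and 8.11 in leaf and 9.69 and 10.8 in root. The PI level in callus was 27.0-fold that in leaf (adjusted p = 2.03e-05, limma) and 23.0-fold that in root (adjusted p = 4.21e-05), or 21.8-fold without root A (adjusted p = 5.18e-04). Its partner AP3 was at 4.43 and 5.18 in callus against 194 and 227 in inflorescence. AG, a carpel and stamen identity gene, was at 1.3 and 1.7 in callus against 38.6 and 38.1 in inflorescence, and SEP3 was at 2.34 and 2.72 against 289 and 297. These genes were picked after their values were seen, and each value rests on 1 probe and 1 callus RNA.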
